A study of Mus musculus with 9 samples.

Results

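The nuclear genes for subunits of respiratory complexes II, III and IV, for cytochrome c and for the ATP synthase were followed while adipocyte precursors of mouse inguinal white fat were turned into beige adipocytes. Members were the rows of the count table whose symbol begins with Uqcr, Atp5 or Cox followed by 5 to 8, or is Sdha, Sdhb, Sdhc, Sdhd, Cyc1 or Cycs. The patterns matched 60 rows, from which 11 pseudogenes with symbols holding -ps and 7 genes of complex IV isoform pairs (Cox6a1, Cox6a2, Cox7a1, Cox7a2, Cox7a2l, Cox8a and Cox8b) were left out. This gave 42 genes of 55359 listed, with 41 distinct symbols because Atp5o stands under 2 Ensembl IDs. They fell into 4 genes of complex II, 9 of complex III, 1 for cytochrome c, 10 of complex IV and 18 of the ATP synthase, also called complex V. Enough counts for the test were present for 38 of the 42.

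The electron transport chain of the inner mitochondrial membrane passes electrons from fuels to oxygen and pumps protons out of the matrix, and the ATP synthase lets the protons back in to make ATP. Complex II, succinate dehydrogenase, hands electrons of succinate to ubiquinone and pumps no protons, complex III passes them on to cytochrome c, and complex IV, cytochrome c oxidase, gives them to oxygen. In thermogenic fat the uncoupling protein UCP1 returns protons without ATP being made, and rodent brown fat is known for a rich respiratory chain with little ATP synthase, beside low expression of the c-subunit gene Atp5g1.

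RNA-seq was done on 9 libraries, 3 of non-induced precursors (day 0), 3 after 4 days (day 4) and 3 after 8 days (day 8) of beige differentiation. Induced cells received dexamethasone (a glucocorticoid), 3-isobutyl-1-methylxanthine (a phosphodiesterase inhibitor), indomethacin, insulin, triiodothyronine (a thyroid hormone) and rosiglitazone (an agonist of the receptor PPARγ) for 2 days. They were then kept without the first 3 agents. Day 0 thus differs from the later days in time, in medium and in cell state at once. Days 4 and 8 both followed the same 2 days of induction and differ in time and in cell state. The sources do not give the mouse strain, age or sex, or say whether the 3 replicates of a day were separate cultures or animals. The p-values therefore measure the spread between these 9 libraries alone, and that spread may be technical. RNA came from the supernatant of a detergent lysate, so RNA held in nuclei may be counted less.

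Total counts per library ranged from 26387408 to 31474490. Levels are given in CPM, counts per 1e6 counts of the TMM-scaled library total. The 8 adipocyte markers summed to 364 to 446 CPM at day 0. Their sums were 22853 to 41180.4 CPM at day 4 and 30365 to 32288 CPM at day 8. This sets day 0 apart from the later days, which overlapped. Fabp4 alone averaged 18617 CPM at day 4 and 21182 CPM at day 8, and Lpl 311 CPM at day 0. The 6 beige markers summed to 0.162 to 0.323 CPM at day 0 and 186 to 556 CPM at day 4. At day 8 they reached 1073 to 1736 CPM, so that their sums followed the labels without overlap. Day 4 replicate 2 stood apart: it scored 13.7 on the first principal component, where day 4 replicates 1 and 3 scored 84.6 and 69.5 and the day 0 libraries -138, -135 and -138. Its 8 precursor markers summed to 1637 CPM, against 656 and 711 CPM in day 4 replicates 1 and 3, and its 6 beige markers to 186 CPM, against 556 and 403 CPM. At day 0 the precursor markers summed to 1328 to 1441 CPM. Ly6a alone had 1132 CPM in day 4 replicate 2, and the list was mixed. In that library Ly6a, Cd34, Dlk1 and Pi16 lay above every day 0 library, and Pdgfra, Pdgfrb, Icam1 and Dpp4 below. Of other cell types, macrophage markers (7 of 7 with counts on each day) summed to 39.1 to 85.3 CPM at day 0, 43.6 to 66.4 CPM at day 4 and 9.40 to 45.6 CPM at day 8. Endothelial markers (6 of 6) summed to 11.3 to 15.5 CPM at day 0, 2.75 to 10.5 CPM at day 4 and 1.92 to 2.94 CPM at day 8. Mural markers summed to 20.4 to 25.4 CPM at day 0, 23.0 to 29.7 CPM at day 4 and 36.2 to 42.6 CPM at day 8, with 5 of 5 seen at days 0 and 4 and Rgs5 at 0 at day 8. Mesothelial ones (4 of 4) had 16.1 to 21.6 CPM at day 0, 19.2 to 43.6 CPM at day 4 and 30.1 to 50.6 CPM at day 8, so that for both lists day 8 lay above day 0 without overlap. Schwann cell ones (4 of 4) had 4.04 to 6.33 CPM at day 0, 5.51 to 9.98 CPM at day 4 and 5.52 to 8.76 CPM at day 8. Skeletal muscle markers had 31.9 to 39.0 CPM at day 0, 8.09 to 12.1 CPM at day 4 and 10.5 to 18.2 CPM at day 8, with Ckm, Myh4 and Myod1 at 0 on all 3 days. The part of any of these cells in the members' levels was not tested. Counts from the mitochondrial genome made up 1.49% to 1.73% of a library at day 0, 3.17% to 5.65% at day 4 and 4.94% to 8.46% at day 8.

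The promoters of 5 members show what the sequence tables hold beside the values below: Cycs and Sdha for the respiratory chain and the 3 genes for the ATP synthase c subunit, whose changes differed from each other. Printed are the 130 bases before the RefSeq start site (build GRCm38.p6), 5′ to 3′ in the direction of the gene, with capitals for matches to NRF1 GCGCANGCG, ERR TCAAGGTCA and NF-Y CCAAT on either strand. They lie on the minus strand at chr6:50566570-50566699, chr13:74350241-74350370, chr11:96075632-96075761, chr15:102671048-102671177 and chr2:73911327-73911456.
Cycs: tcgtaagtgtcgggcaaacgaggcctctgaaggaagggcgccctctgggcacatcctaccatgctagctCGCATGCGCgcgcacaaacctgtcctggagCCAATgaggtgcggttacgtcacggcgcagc
Sdha: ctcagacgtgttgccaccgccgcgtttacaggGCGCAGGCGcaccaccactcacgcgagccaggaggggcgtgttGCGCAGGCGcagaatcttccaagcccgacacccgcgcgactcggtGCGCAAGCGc
Atp5g1: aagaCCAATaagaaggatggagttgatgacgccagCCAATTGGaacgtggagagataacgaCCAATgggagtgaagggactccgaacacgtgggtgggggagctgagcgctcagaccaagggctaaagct
Atp5g2: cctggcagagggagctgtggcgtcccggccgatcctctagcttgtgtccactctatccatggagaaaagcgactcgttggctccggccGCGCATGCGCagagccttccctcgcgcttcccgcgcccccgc
Atp5g3: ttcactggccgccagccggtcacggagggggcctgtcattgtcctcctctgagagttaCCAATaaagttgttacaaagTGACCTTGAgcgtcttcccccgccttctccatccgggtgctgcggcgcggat

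NRF1 (nuclear respiratory factor 1) and the estrogen-related receptors (ERR) are transcription factors known for nuclear genes of mitochondria, and NF-Y binds the CCAAT box of many promoters. The Cycs stretch held 1 NRF1 and 1 NF-Y match and the Sdha stretch 3 NRF1 matches. Of these 3 motifs Atp5g1 held only NF-Y, with a pair of matches overlapping in CCAATTGG, and Atp5g2 only NRF1, with matches on the 2 strands overlapping in GCGCATGCGC. Atp5g3 held 1 ERR and 1 NF-Y match, and its NRF1 match lies in the window but outside the printed stretch. RefSeq windows (250 bases before to 50 bases after the start) were matched by symbol for 30 of the 38 tested genes, with 33 windows in all. NRF1 matched 36.4% of these windows, against 6.25% of all 32851 windows in the table and 12.4% of the 13948 windows of tested genes. The 12 genes with it were Sdha, Sdhd, Uqcrc1, Uqcr11, Cycs, Atp5c1, Atp5g2, Atp5g3, Atp5h, Atp5k, Atp5l and Atp5o. An ERR match stood in 6.06% of the windows (Sdhd and Atp5g3), against 0.423% of all and 0.280% of tested genes' windows. Shares for the ETS core CCGGAAG were 33.3% in members, 8.86% in all windows and 16.4% in windows of tested genes, and for NF-Y 54.5%, 37.4% and 37.6%. The YY1 core AAGATGGCG was in 6.06%, 1.40% and 2.77% of the same windows, and Sp1 GGGCGG in 33.3%, 35.7% and 61.1%. All motifs were searched on both strands, and a match is a description of letters in a window, not a binding site.

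All 38 tested genes rose by day 4 and were above day 0 at day 8. The test was edgeR's quasi-likelihood test with Benjamini-Hochberg adjustment over 14649 genes, and the largest adjusted p of a member was 0.00323 at day 4 and 2.23e-04 at day 8. Of all tested genes, 28.6% were called higher at day 4 than at day 0 and 33.5% at day 8. All 3 libraries of day 4 lay above all 3 of day 0 in 38 of 38 members, against 32.8% of all tested genes, and the same held for day 8 in 38 of 38, against 37.4%. The median log2 fold change of the 38 was 2.47 for day 4 over day 0 and 2.87 for day 8 over day 0, beside -0.012 and 0.028 over all tested genes. With total counts in place of TMM scaling, the median over all tested genes was -0.336 at day 4 and -0.332 at day 8. That of the members was then 2.13 and 2.50, and all 38 were again called higher. At least a 2-fold rise was seen for 37 of 38 at day 4 and 38 at day 8, and at least an 8-fold rise for 5 and 13. In bulk libraries, more cells of a type and more RNA per cell cannot be told apart.

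Summed over the members, levels were 5014, 5150.0 and 4916 CPM at day 0, 37242, 19480 and 29973 CPM at day 4 and 33242, 43918 and 32205 CPM at day 8. The day 8 mean was 7.25 times and the day 4 mean 5.75 times the day 0 mean. Day 4 replicate 2 was the lowest day 4 library in all 38 members and yet above every day 0 library in all 38. Day 4 replicate 1 was the highest of its day in 36 members and day 8 replicate 2 in 34. Without day 4 replicate 2, all 38 were again called higher on both days, with medians of 2.68 at day 4 and 2.82 at day 8. The day 4 changes then ran from 1.02 to 4.51, against 0.90 to 4.25 with that library, with Atp5g2 lowest and Cycs highest both times. As a share of all counts in a library, the members took 0.574% to 0.603% at day 0, 1.94% to 3.28% at day 4 and 3.05% to 3.78% at day 8.

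**Figure D1:**
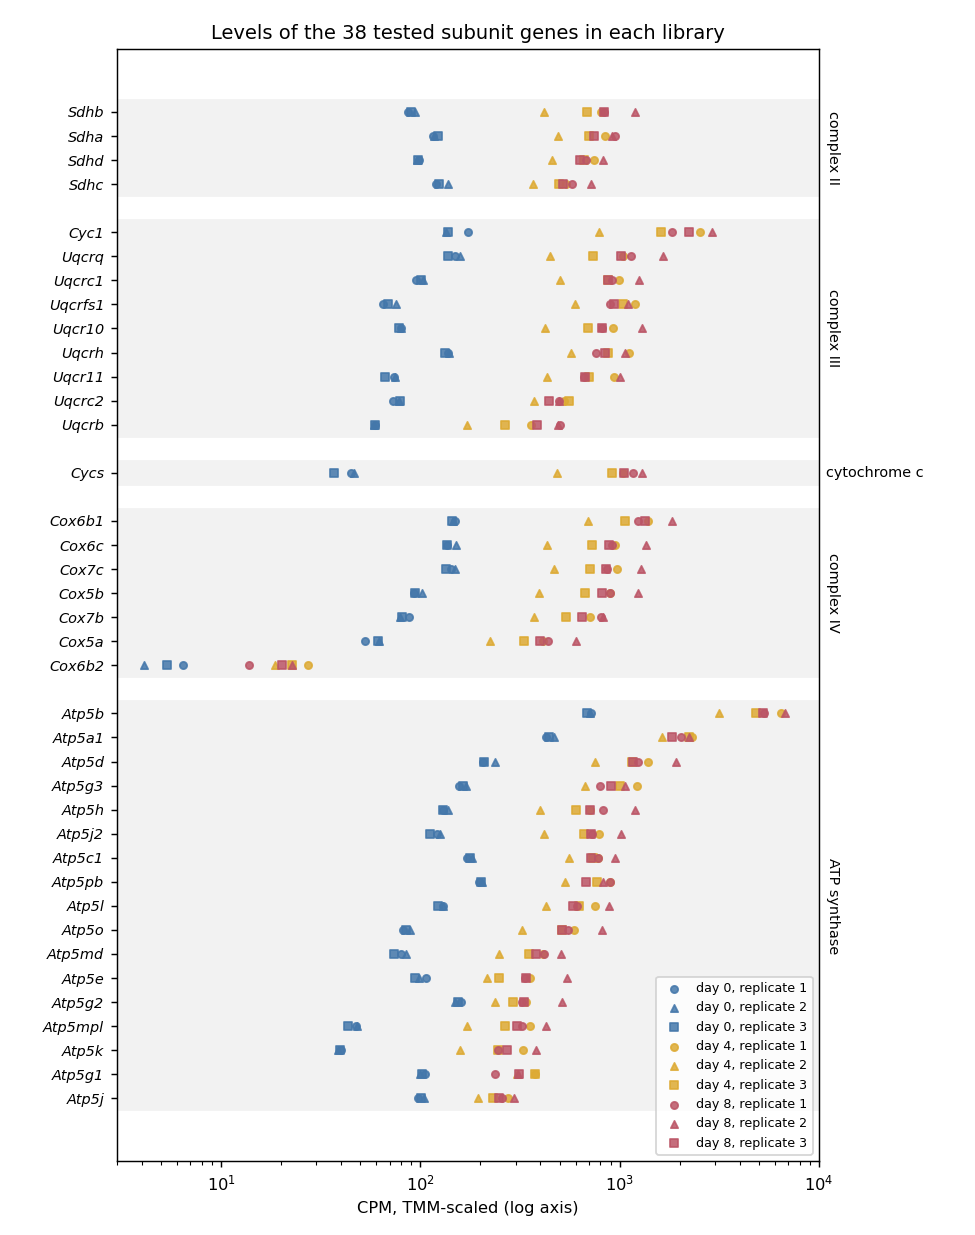
Level of each tested gene (CPM with TMM scaling, log axis) in the 9 libraries, grouped by complex and sorted by level at day 8, with color for the day and marker shape for the replicate. All day 4 and day 8 points lie right of the day 0 points in all 38 rows, the day 4 triangle (replicate 2) is the leftmost of its day in every row, and Cox6b2 is far below the other genes of complex IV.

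Complex II had all 4 genes higher, with median log2 fold changes of 2.59 at day 4 and 2.87 at day 8. Its catalytic head is made of Sdha, the flavoprotein that oxidizes succinate, and Sdhb, which carries electrons through iron-sulfur clusters. Sdhb had 87.0, 93.7 and 90.0 CPM at day 0, 804, 414 and 684 CPM at day 4 and 832, 1195 and 837 CPM at day 8. Its 3 days did not overlap, and the lowest day 8 library lay just above the highest day 4 library. Sdhb rose more than any other gene of the complex (log2 fold change 2.81, SE 0.25, adjusted p = 8.55e-06 at day 4). At day 8 the rise was 10.6-fold (log2 fold change 3.40, SE 0.26, adjusted p = 2.80e-06). Sdha averaged 118 ± 3.99 CPM at day 0, 677 ± 178 CPM at day 4 and 866 ± 110.2 CPM at day 8, where ± is the SD of the 3 libraries of a day here and below. It too rose on both days (log2 fold change 2.87, SE 0.21, adjusted p = 2.24e-06 at day 8).

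The membrane anchor, which binds ubiquinone, consists of Sdhc and Sdhd. For Sdhc the libraries held 119, 138 and 124 CPM at day 0, 534, 365 and 494 CPM at day 4 and 579, 716 and 517 CPM at day 8. Day 0 stood apart from both later days, which overlapped. The rise of Sdhc was the smallest of the complex (log2 fold change 1.87, SE 0.19, adjusted p = 1.74e-05 at day 4). At day 8 it was 4.75-fold (log2 fold change 2.25, SE 0.19, adjusted p = 4.93e-06). Sdhd averaged 97.4 ± 1.52 CPM at day 0, 621 ± 149 CPM at day 4 and 712 ± 100.3 CPM at day 8 (log2 fold change 2.87, SE 0.20, adjusted p = 1.79e-06 at day 8). In level per kilobase of the longest coding transcript, Sdhb was highest of the 4 at day 8 with 836 CPM per kb and Sdhc lowest with 190.5. With the length of all exons joined, Sdhd was highest, so this order depends on the transcript taken.

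In complex III all 9 genes rose, with median log2 fold changes of 2.98 at day 4 and 3.35 at day 8. Cyc1 (cytochrome c1) and Uqcrfs1 (the Rieske iron-sulfur protein) are its nuclear-encoded subunits that carry electrons. Cyc1 had 173, 134 and 137 CPM at day 0, 2533, 787 and 1617 CPM at day 4 and 1830.0, 2895 and 2239 CPM at day 8. All later libraries lay above day 0, and days 4 and 8 overlapped, with day 4 replicate 2 far below the rest of its day. Cyc1 rose 11.1-fold by day 4 (log2 fold change 3.47, SE 0.39, adjusted p = 3.55e-05). By day 8 it was 15.7-fold higher, the most of the complex (log2 fold change 3.97, SE 0.39, adjusted p = 1.37e-05). Uqcrfs1 averaged 70.0 ± 5.30 CPM at day 0, 945 ± 311 CPM at day 4 and 976 ± 110.2 CPM at day 8. It had the largest rise of complex III at day 4 (log2 fold change 3.75, SE 0.26, adjusted p = 1.26e-06) and the second largest at day 8 (log2 fold change 3.80, SE 0.26, adjusted p = 1.36e-06).

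Uqcrc1 and Uqcrc2 are the core proteins on the matrix side, related to the peptidases that process imported proteins. Uqcrc2 had 72.6, 77.7 and 78.5 CPM at day 0, 525, 371 and 554 CPM at day 4 and 495, 496 and 442 CPM at day 8. Its day 4 and day 8 libraries overlapped and lay far above day 0. Uqcrc2 rose by day 4 (log2 fold change 2.66, SE 0.17, adjusted p = 9.66e-07), and its rise at day 8 was the smallest of the complex (log2 fold change 2.65, SE 0.17, adjusted p = 1.13e-06). Uqcrc1 averaged 99.5 ± 3.62 CPM at day 0, 787 ± 254 CPM at day 4 and 1013 ± 203 CPM at day 8 (log2 fold change 3.35, SE 0.26, adjusted p = 3.21e-06 at day 8).

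The small subunits without a cofactor are Uqcrb, Uqcrq, Uqcr10, Uqcr11 and the hinge protein Uqcrh, which is known to help cytochrome c dock on cytochrome c1. Their log2 fold changes at day 8 ran from 2.71 for Uqcrh to 3.62 for Uqcr10. Their median of 3.10 stood beside 3.89 for the pair that carries electrons and 3.00 for the core proteins. Uqcr10 averaged 79.1 ± 0.989 CPM at day 0, 681 ± 254 CPM at day 4 and 974 ± 276 CPM at day 8. The mean level of Uqcr11 was 71.8 ± 4.48 CPM at day 0, 690.3 ± 249.6 CPM at day 4 and 775 ± 194 CPM at day 8 (log2 fold change 3.43 at day 8). Uqcrh averaged 136 ± 3.60 CPM at day 0, 849.9 ± 271 CPM at day 4 and 888 ± 161 CPM at day 8. For Uqcrq the means were 148 ± 10.2 CPM at day 0, 739 ± 297 CPM at day 4 and 1267 ± 334 CPM at day 8 (log2 fold change 3.10, SE 0.31, adjusted p = 1.30e-05 at day 8).

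Uqcrb had 59.3, 58.2 and 58.9 CPM at day 0, 359.7, 171 and 266 CPM at day 4 and 502, 492 and 384 CPM at day 8. The 3 days did not overlap at all. Uqcrb rose by day 4 (log2 fold change 2.17, SE 0.24, adjusted p = 3.58e-05), and by day 8 it was 7.81-fold above day 0 (log2 fold change 2.97, SE 0.25, adjusted p = 4.84e-06). In level per kilobase at day 8, Uqcr10 was highest of the 9 with 2245 CPM per kb and Uqcrc2 lowest with 252, a ratio of 8.91. Both ends of this order were the same with joined exon lengths.

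Cytochrome c carries electrons from complex III to complex IV and is also known as a trigger of apoptosis when released from mitochondria. Its gene Cycs had 44.8, 46.6 and 37.0 CPM at day 0, 1036, 486 and 916 CPM at day 4 and 1172, 1296 and 1046 CPM at day 8. Days 4 and 8 lay close together without overlap, and day 0 was far below both. The rise of Cycs was the largest of the 38 on both days, 19.0-fold at day 4 (log2 fold change 4.25, SE 0.28, adjusted p = 1.12e-06). At day 8 it was 27.4-fold (log2 fold change 4.77, SE 0.29, adjusted p = 6.92e-07). Per kilobase of its longest coding transcript, the level of Cycs was 13.7 CPM per kb at day 0, 260.3 at day 4 and 375 at day 8.

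Of the 10 complex IV genes 7 were tested, and all 7 rose, with median log2 fold changes of 2.46 at day 4 and 3.03 at day 8. These nuclear subunits surround the catalytic core, which the mitochondrial genome encodes. Cox5b, a zinc-binding subunit on the matrix side, had 92.4, 102 and 93.5 CPM at day 0, 896, 395 and 671 CPM at day 4 and 891, 1237 and 819 CPM at day 8. Its later libraries all lay above day 0, and days 4 and 8 overlapped. Cox5b rose the most of the complex at day 8, 10.2-fold (log2 fold change 3.35, SE 0.29, adjusted p = 6.07e-06). At day 4 its change was 6.81-fold (log2 fold change 2.77, SE 0.29, adjusted p = 2.14e-05). Cox6b1, a subunit on the intermembrane side, averaged 146 ± 2.62 CPM at day 0, 1049 ± 348 CPM at day 4 and 1468 ± 325 CPM at day 8 (log2 fold change 3.33, SE 0.27, adjusted p = 3.69e-06 at day 8). In level per kilobase it was the most abundant of the 7 on each day, with 2376 CPM per kb at day 8 and 236 at day 0.

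Cox7b averaged 759 ± 97.9 CPM at day 8 and 82.3 ± 4.41 CPM at day 0 (log2 fold change 3.20, SE 0.23, adjusted p = 2.12e-06). The means of Cox5a were 479 ± 107 CPM at day 8 and 58.6 ± 5.16 CPM at day 0 (log2 fold change 3.03, SE 0.25, adjusted p = 3.83e-06). Cox6c had 1051 ± 263 CPM at day 8 and 141 ± 8.13 CPM at day 0 (log2 fold change 2.90, SE 0.29, adjusted p = 1.30e-05), and Cox7c 1001 ± 246 CPM at day 8 and 142 ± 7.75 CPM at day 0 (log2 fold change 2.81, SE 0.27, adjusted p = 1.15e-05). Cox6b2 is an isoform of Cox6b1 known from testis. It had 6.42, 4.11 and 5.35 CPM at day 0, 27.1, 18.6 and 22.6 CPM at day 4 and 13.8, 22.7 and 20.1 CPM at day 8. These low levels were all higher on the later days than at day 0, and days 4 and 8 overlapped. Its rise was the smallest of complex IV (log2 fold change 2.10, SE 0.24, adjusted p = 4.64e-05 at day 4). At day 8 the rise was 3.55-fold (log2 fold change 1.83, SE 0.24, adjusted p = 8.68e-05). In level per kilobase at day 8 it stood at 32.2 CPM per kb, and Cox6b1 was 73.7 times higher. With joined exon lengths Cox6b1 was 122 times higher.

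The other complex IV genes of the rule did not have enough counts to be tested. Cox6c2 had 1 count in all of day 0, 0 at day 4 and 1, 8 and 3 counts in the day 8 libraries. Cox7b2 and Cox8c are known as isoforms of the testis. Of these Cox7b2 had 1 count, in day 8 replicate 1, and Cox8c none in any library. The second Ensembl ID of Atp5o (ENSMUSG00000116933) had 0 counts throughout. In one library 3 counts, the limit that a count of 0 allows, came to between 0.0809 and 0.125 CPM, which covers counting error only.

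The ATP synthase had 17 of 18 genes tested, and all 17 rose. The median log2 fold changes of 2.20 at day 4 and 2.45 at day 8 were the lowest of the 5 groups. In the F1 head, where ATP is made, Atp5a1 and Atp5b encode the alpha and beta subunits, Atp5c1 the gamma shaft, and Atp5d and Atp5e the delta and epsilon subunits at its foot. Atp5b had 721, 706 and 683 CPM at day 0, 6482, 3147 and 4807 CPM at day 4 and 5304, 6716 and 5245 CPM at day 8. All later libraries lay above day 0, and days 4 and 8 overlapped. Atp5b rose the most of the ATP synthase at day 4 (log2 fold change 2.77, SE 0.27, adjusted p = 1.37e-05) and at day 8 (log2 fold change 3.03, SE 0.27, adjusted p = 7.01e-06). It was also the most abundant of the 17 per kilobase on each day, with 3004 CPM per kb at day 8 and 367 at day 0.

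The alpha subunit gene Atp5a1 averaged 446 ± 18.7 CPM at day 0, 2053 ± 377 CPM at day 4 and 2029.6 ± 199.7 CPM at day 8 (log2 fold change 2.19, SE 0.19, adjusted p = 5.09e-06 at day 8). Atp5c1 had 813 ± 117 CPM at day 8 and 176 ± 4.56 CPM at day 0 (log2 fold change 2.20). Levels of Atp5d were 1442 ± 419.7 CPM at day 8 and 217 ± 18.1 CPM at day 0 (log2 fold change 2.73). Atp5e, with 407 ± 119 CPM at day 8 and 99.6 ± 6.24 CPM at day 0, rose the least of the head (log2 fold change 2.03). The peripheral stalk holds the head still and is built of Atp5pb (subunit b), Atp5h (subunit d), Atp5j (coupling factor F6) and Atp5o (OSCP). Atp5o averaged 84.9 ± 3.45 CPM at day 0, 474 ± 137 CPM at day 4 and 626 ± 164 CPM at day 8 and rose the most of the stalk at day 8 (log2 fold change 2.88, SE 0.25, adjusted p = 6.25e-06). Atp5j averaged 101 ± 2.97 CPM at day 0, 233 ± 41.2 CPM at day 4 and 267 ± 25.3 CPM at day 8 and rose the least (log2 fold change 1.41, SE 0.15, adjusted p = 2.46e-05 at day 8). In between were Atp5h, with 909 ± 254 CPM at day 8 and 132 ± 4.50 CPM at day 0 (log2 fold change 2.78), and Atp5pb, with 800.2 ± 112 CPM at day 8 and 200.3 ± 3.97 CPM at day 0 (log2 fold change 2.00).

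The 5 membrane accessory subunits include Atp5k (subunit e) and Atp5l (subunit g), known for their part in forming dimers of the enzyme. Their median log2 fold change at day 8 was 2.77, beside 2.39 for the stalk, 2.20 for the head and 1.49 for the c ring. Atp5k had 298 ± 70.8 CPM at day 8 and 39.2 ± 0.653 CPM at day 0 (log2 fold change 2.92). The level of Atp5l was 692 ± 164 CPM at day 8 and 128 ± 3.81 CPM at day 0, the smallest rise of the 5 (log2 fold change 2.44). Atp5j2 (subunit f) stood at 818 ± 167 CPM at day 8 and 119.5 ± 7.01 CPM at day 0 (log2 fold change 2.77). For Atp5md (DAPIT) the values were 435 ± 65.1 CPM at day 8 and 79.5 ± 5.76 CPM at day 0 (log2 fold change 2.45), and for the small proteolipid gene Atp5mpl 352 ± 64.7 CPM at day 8 and 46.3 ± 2.57 CPM at day 0 (log2 fold change 2.93).

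**Figure D2:**
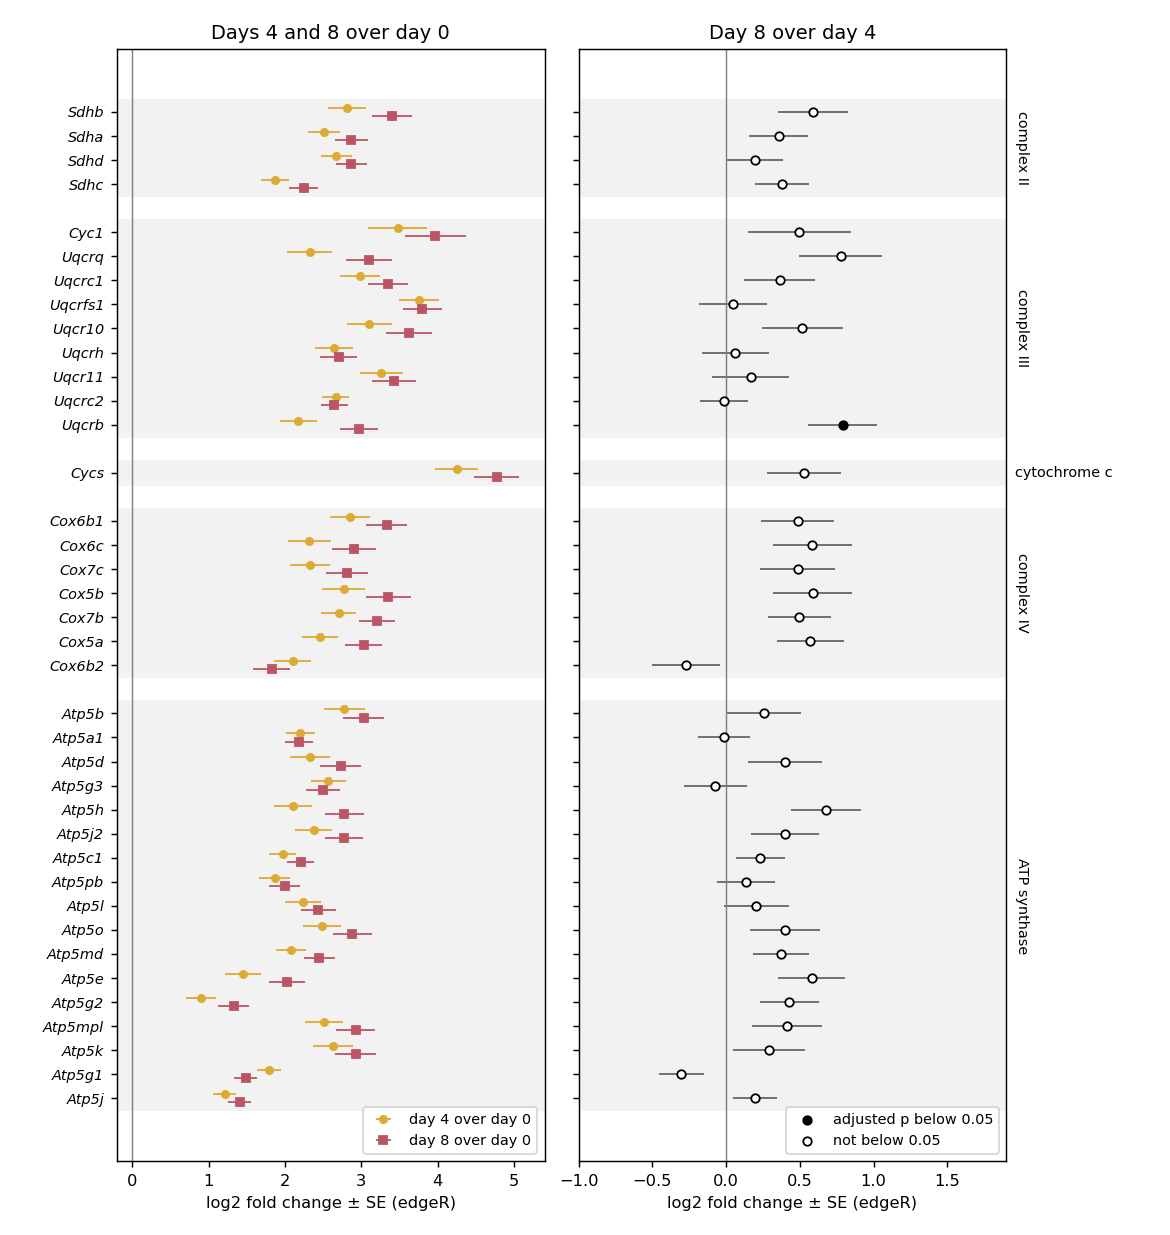
Log2 fold change (edgeR, bars: SE, n = 3 libraries per day) of the 38 tested genes by complex, for days 4 and 8 over day 0 on the left and day 8 over day 4 on the right. On the left Cycs reaches 4.25 and 4.77 and Atp5g2 lies lowest at 0.90 and 1.33. On the right the values lie between -0.30 and 0.79, and Uqcrb is the only filled point.

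The c ring, through which the protons flow, is made of a single small protein that 3 genes encode, Atp5g1, Atp5g2 and Atp5g3, whose products differ in their cleaved import sequences. Atp5g1 had 105, 99.1 and 102 CPM at day 0, 374, 305 and 378 CPM at day 4 and 236, 307 and 313 CPM at day 8. Its later libraries were all above day 0, and days 4 and 8 overlapped. It rose 3.45-fold by day 4 (log2 fold change 1.79, SE 0.15, adjusted p = 6.57e-06) and was 2.80-fold higher at day 8 (log2 fold change 1.49, SE 0.15, adjusted p = 1.75e-05). Atp5g2 had 159.6, 149.8 and 154 CPM at day 0, 338, 237 and 291 CPM at day 4 and 323, 512 and 331 CPM at day 8. All later libraries again lay above day 0, and days 4 and 8 overlapped. Its rise was the smallest of the 38 on both days, 1.87-fold at day 4 (log2 fold change 0.90, SE 0.20, adjusted p = 0.00323). At day 8 it was 2.51-fold (log2 fold change 1.33, SE 0.20, adjusted p = 2.23e-04). Atp5g3 had 156, 168 and 163 CPM at day 0, 1221, 671 and 1003 CPM at day 4 and 796, 1059 and 899 CPM at day 8. With overlapping later days far above day 0, Atp5g3 rose 5.94-fold by day 4 (log2 fold change 2.57, SE 0.22, adjusted p = 6.84e-06) and was 5.65-fold higher at day 8 (log2 fold change 2.50, SE 0.22, adjusted p = 7.01e-06).

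The share of each gene in the summed counts of the 3 was taken as a measure of its own. Atp5g3 held 37.1%, 40.3% and 38.9% in the day 0 libraries, 63.2%, 55.3% and 60.0% at day 4 and 58.7%, 56.4% and 58.3% at day 8. Its share in every induced library lay above all day 0 libraries. Atp5g2 held 37.9%, 35.9% and 36.8% at day 0, 17.5%, 19.6% and 17.4% at day 4 and 23.9%, 27.2% and 21.4% at day 8. No pair of days overlapped for Atp5g2, and its share was lowest at day 4. Atp5g1 held 24.9%, 23.8% and 24.3% at day 0, 19.4%, 25.1% and 22.6% at day 4 and 17.4%, 16.4% and 20.3% at day 8. It was lower in all day 8 libraries than at day 0, and day 4 overlapped with both other days. Without day 4 replicate 2 the day 4 means were 21.0% for Atp5g1, 17.4% for Atp5g2 and 61.6% for Atp5g3, against 22.4% ± 2.88, 18.2% ± 1.23 and 59.5% ± 3.94 with all 3 libraries.

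Shares were compared by a two-sided exact permutation test on 3 against 3 libraries, which cannot give a p below 0.1. Atp5g3 averaged 59.5% at day 4 and 57.8% at day 8, against 38.8% at day 0, with an exact p = 0.1 in each comparison. Atp5g2 gave the same smallest p in all 3 pairs of days, and so did Atp5g1 for day 8 against day 0. Adjusted over the 9 exact tests these p-values were 0.15, so no share could pass 0.05 with this number of libraries. The other exact p-values were 0.4 for Atp5g1 at day 4 against day 0, 0.2 for Atp5g1 at day 8 against day 4 and 0.5 for Atp5g3 at day 8 against day 4. Counts are not levels per length, and for Atp5g1 the length depends on the transcript, with 4715 bases for the longest coding and 596 for the shortest principal one. The same lengths were 753 and 441 bases for Atp5g2 and 723 and 714 for Atp5g3. Per kilobase of the longest transcripts, Atp5g3 made up 49.8% at day 0, 74.0% at day 4 and 69.0% at day 8. Per kilobase of the shortest principal ones it made up 30.4% at day 0, 51.5% at day 4 and 48.8% at day 8. For Atp5g1 the longest transcripts gave 3.30% at day 8 against 4.79% at day 0, and the shortest principal ones 18.2% against 22.8%.

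**Figure D3:**
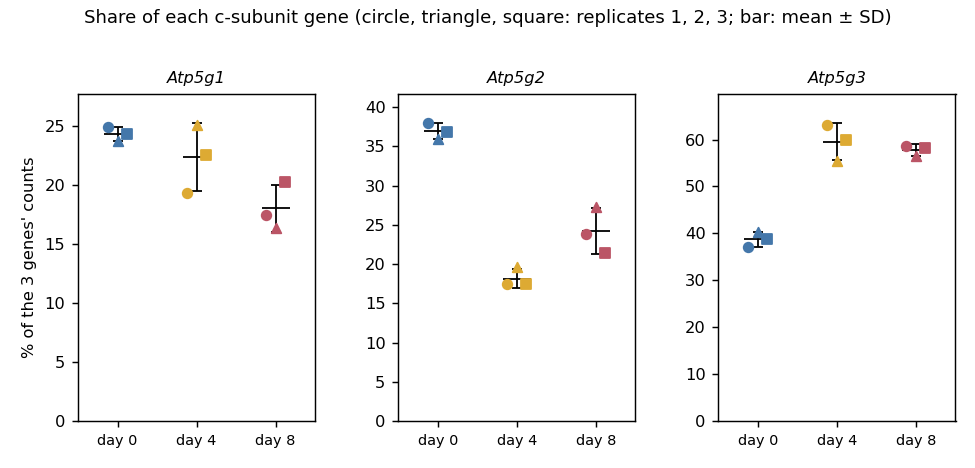
Share of Atp5g1, Atp5g2 and Atp5g3 in their summed counts (percent, y axes starting at 0 with a scale per panel) at days 0, 4 and 8, with 3 libraries per day and bars for mean ± SD. Atp5g3 lies between 37.1% and 40.3% at day 0 and between 55.3% and 63.2% in the induced libraries, and Atp5g2 is lowest at day 4.

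The make-up of the members' counts shifted between the days. The ATP synthase genes held 59.5% ± 0.135 at day 0, 50.9% ± 2.09 at day 4 and 47.3% ± 0.458 at day 8 of these counts. Complex III held 17.7% ± 0.342 at day 0, 24.1% ± 1.91 at day 4 and 25.1% ± 0.846 at day 8. Cytochrome c took 0.850% ± 0.0843 at day 0, 2.78% ± 0.280 at day 4 and 3.24% ± 0.288 at day 8. Complex IV took 13.3% ± 0.0867 at day 0, 13.8% ± 0.524 at day 4 and 15.7% ± 0.501 at day 8, and complex II 8.62% ± 0.233 at day 0, 8.39% ± 0.507 at day 4 and 8.64% ± 0.441 at day 8. In all libraries of days 4 and 8 the ATP synthase lay below, and complex III and cytochrome c above, every day 0 library, while the complex II ranges overlapped on all 3 days. Without day 4 replicate 2 the day 4 share of the ATP synthase was 49.8% and that of complex III 25.2%. The shares are sums over the genes named here, without Cox4i1, the isoform pairs and the mitochondrial genome, and no test was made on them.

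In summed level, complex II stood at 433 ± 12.6 CPM at day 0, 2397 ± 613 CPM at day 4 and 3137 ± 468 CPM at day 8. Complex III summed to 887 ± 25.5 CPM at day 0, 7087 ± 2668 CPM at day 4 and 9152 ± 1807 CPM at day 8. The sum of complex IV was 671 ± 19.8 CPM at day 0, 4002 ± 1372 CPM at day 4 and 5759 ± 1221 CPM at day 8. For the ATP synthase it was 2992 ± 68.3 CPM at day 0, 14599.7 ± 4000.0 CPM at day 4 and 17236 ± 2909 CPM at day 8. With TMM scaling the day 8 over day 0 ratio of these sums was 7.24 for complex II and 10.3 for complex III. It was 8.58 for complex IV and 5.76 for the ATP synthase. Each of these ratios was smaller with total counts.

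**Figure D4:**
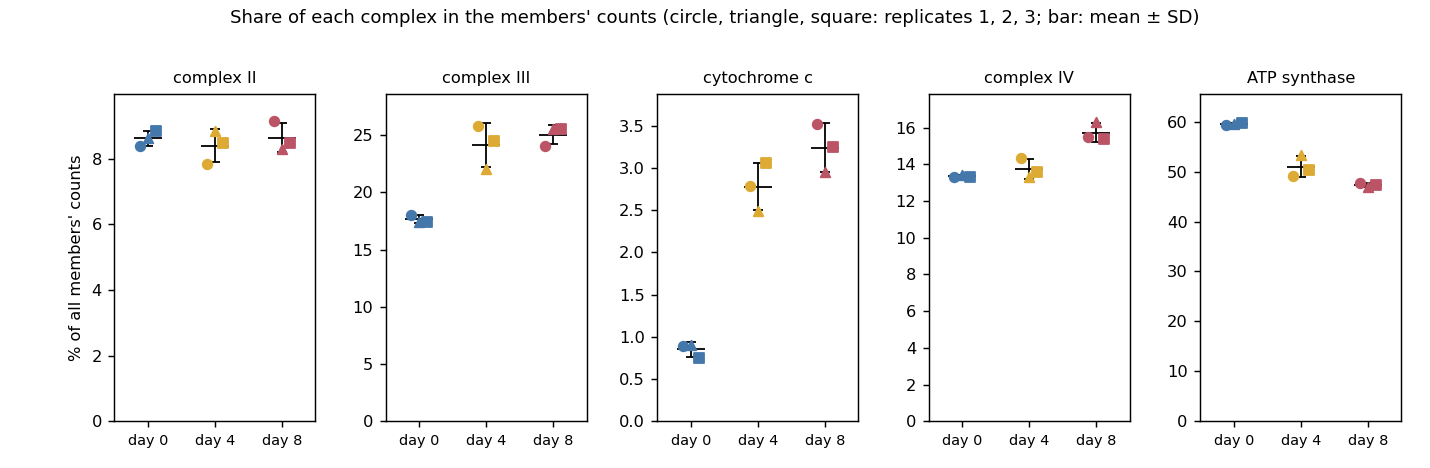
Share of each group of genes in the counts of all members (percent, y axes starting at 0 with a scale per panel) in the 9 libraries, with bars for mean ± SD of 3 libraries per day. The ATP synthase lies at 47.3% at day 8 and 59.5% at day 0, complex III at 25.1% at day 8 and 17.7% at day 0, and complex II at 8.64% at day 8 and 8.62% at day 0.

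Between day 4 and day 8 most members were not called. Uqcrb was called higher at day 8 (log2 fold change 0.79, SE 0.23, adjusted p = 0.0344), 1 of 38 members, against 11.7% of all tested genes. None was called lower, against 10.8% of all tested genes. The call of Uqcrb was lost when any single day 0 library, day 4 replicate 3 or day 8 replicate 1 or 2 was left out, and with only these 2 days in the fit (adjusted p from 0.059 to 0.098). The median log2 fold change of the 38 was 0.39, beside 0.0028 over all tested genes, and 33 values were above 0. All day 8 libraries lay above all day 4 libraries in 4 members (Sdhb, Uqcrb, Cycs and Atp5h), or 4 of 38, against 19.9% of all tested genes. By group the medians were 0.37 for complex II, 0.36 for complex III, 0.53 for cytochrome c, 0.50 for complex IV and 0.29 for the ATP synthase. Leaving out day 4 replicate 2 gave medians of 0.15, 0.07, 0.21, 0.24 and 0.045 in the same order, and 25 of the 38 values were above 0.

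The 5 members with log2 fold changes below 0 were Atp5g1 (log2 fold change -0.30, SE 0.15, adjusted p = 0.167), Cox6b2 (-0.27), Atp5g3 (-0.072), Uqcrc2 (-0.017) and Atp5a1 (-0.016), and none passed. After Uqcrb the largest values were those of Uqcrq (log2 fold change 0.78, SE 0.28, adjusted p = 0.0721) and Atp5h (log2 fold change 0.68, SE 0.24, adjusted p = 0.0645), picked here after their values were seen. This comparison moved with single libraries. Without day 4 replicate 1, the highest of its day in 36 members, 14 were called higher, among them Sdhb, Cyc1 and Cox5b. Over all genes the number called higher also moved, from 910 to 2049 when a single library was left out, against 1709 with all libraries. Without day 4 replicate 2 the median was 0.12, Uqcrb was called higher (0.50, adjusted p = 0.0418) and Atp5g1 lower (-0.45, adjusted p = 0.0293). DESeq2, as well as edgeR with no filter on low counts, called 3 members higher (Uqcrb, Uqcrq and Atp5h).

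Several partners in the same complexes lie outside the naming rule. Cox4i1, the widely expressed form of a large nuclear subunit of complex IV, averaged 378 ± 12.9 CPM at day 0, 1957 ± 730.4 CPM at day 4 and 2732 ± 871 CPM at day 8. It was called higher at day 8 (log2 fold change 2.85, SE 0.32, adjusted p = 2.76e-05). Its isoform Cox4i2, known from lung and for low-oxygen conditions, had 0.674, 0.777 and 0.799 CPM at day 0, 8.39, 3.30 and 8.31 CPM at day 4 and 32.1, 48.5 and 35.3 CPM at day 8. The 3 days of Cox4i2 did not overlap. It rose by day 4 (log2 fold change 3.14, SE 0.36, adjusted p = 4.74e-05) and was higher still at day 8 (log2 fold change 5.68, SE 0.38, adjusted p = 1.30e-06). Day 8 over day 4 was called as well (log2 fold change 2.54, SE 0.32, adjusted p = 8.02e-04). Ndufa4, a subunit now placed in complex IV, averaged 605 ± 87.8 CPM at day 8 and 112 ± 5.32 CPM at day 0 (log2 fold change 2.44, SE 0.19, adjusted p = 3.54e-06).

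The inhibitor of the ATP synthase is listed under its older symbol Atpif1 and so lies outside the rule. Atpif1 had 72.3, 80.4 and 76.0 CPM at day 0, 61.9, 70.9 and 55.3 CPM at day 4 and 57.3, 77.6 and 67.5 CPM at day 8. All day 4 libraries lay below all day 0 libraries, and day 8 overlapped with both. Atpif1 was called neither at day 4 (log2 fold change -0.28, SE 0.15, adjusted p = 0.124) nor at day 8 (log2 fold change -0.18, SE 0.14, adjusted p = 0.308). With total counts it was called lower on both days (-0.60, adjusted p = 0.00613 at day 4 and -0.54, adjusted p = 0.00872 at day 8). Without day 4 replicate 2 it was called lower at day 4 (-0.38, adjusted p = 0.0308). Of the mitochondrial genome, mt-Cytb of complex III and mt-Co1 of complex IV had log2 fold changes of 1.46 and 2.23 at day 8. Those of mt-Co2, mt-Co3, mt-Atp6 and mt-Atp8 were 3.74, 3.70, 3.72 and 3.78 with SEs from 0.44 to 1.27, and all 6 genes were called higher. Day 8 replicate 1 stood far above replicates 2 and 3 for mt-Co2 (1221, 197 and 186 CPM) and mt-Atp6 (1137, 87.5 and 232 CPM). For mt-Atp8, with 102, 45 and 3 counts at day 0, days 0 and 8 overlapped.

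Assembly and accessory factors of these complexes, proteins that build the enzymes or act on them, mostly rose too, with smaller medians. Of 46 in the list 43 had a row and 41 were tested (Sco2 had 1 count and Pet117 none). At day 4, 38 were called higher and 0 lower. At day 8, 37 were called higher and 0 lower, and 38 were higher without day 4 replicate 2. Among all tested genes, 28.6% were called higher at day 4 and 33.5% at day 8. Those were 4192 of the 7998 genes called in either direction at day 4 and 4913 of 9290 at day 8. The median log2 fold changes of the 41 tested factors were 1.37 at day 4 and 1.55 at day 8, beside 2.47 and 2.87 for the members. For the ATP synthase, Fmc1 had the largest rise (log2 fold change 3.85, SE 0.31, adjusted p = 3.42e-06 at day 8). Next was Atpaf2, the chaperone of the alpha subunit (log2 fold change 2.99, SE 0.17, adjusted p = 4.75e-07). Atpaf1, the chaperone of the beta subunit, had the smallest (log2 fold change 0.45, SE 0.15, adjusted p = 0.0247). Its call at day 8 was lost with total counts (0.088, adjusted p = 0.647), with no filter on low counts, and when any single day 0 library or day 8 replicate 1 was left out. Tmem70, known for c ring assembly, was higher at day 8 than at day 0 (log2 fold change 0.73, SE 0.13, adjusted p = 5.41e-04) and lower than at day 4 (log2 fold change -0.50, SE 0.13, adjusted p = 0.0206).

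In complex IV the copper chaperone Cox17 led at day 8 (log2 fold change 2.72, SE 0.33, adjusted p = 4.74e-05), followed by Cmc2 (log2 fold change 2.68, SE 0.25, adjusted p = 8.39e-06). Cox16 had the smallest change (log2 fold change 0.67, SE 0.17, adjusted p = 0.00489), which was not called with total counts (0.31, adjusted p = 0.131), and Cox20 the next (log2 fold change 0.71, SE 0.51, adjusted p = 0.243). For complex III, Lyrm7, which guards the Rieske protein before its insertion, rose the most (log2 fold change 2.85, SE 0.26, adjusted p = 7.93e-06), before Uqcc1 (1.99). Uqcc2 (log2 fold change 0.36, SE 0.16, adjusted p = 0.075) and Ttc19 (log2 fold change 0.25, SE 0.16, adjusted p = 0.178) were not called. Without day 8 replicate 1, Uqcc2 was called higher at day 8 (0.46, adjusted p = 0.0413), and with total counts Ttc19 was called lower at day 4 (-0.53, adjusted p = 0.0124). For complex II, Sdhaf1 and Sdhaf3, which serve the iron-sulfur subunit, had log2 fold changes of 2.29 and 2.24 at day 8, and Sdhaf4 had 0.97. Sdhaf2, which helps attach the flavin to Sdha, had the smallest (log2 fold change 0.40, SE 0.13, adjusted p = 0.0223). That call was lost with total counts (0.045, adjusted p = 0.781), with no filter on low counts, and when any single day 0 library or day 8 replicate 1 or 3 was left out. Hccs, which attaches heme to cytochrome c, was called higher at day 4 (log2 fold change 0.81, SE 0.26, adjusted p = 0.0215) and not at day 8 (log2 fold change 0.62, SE 0.26, adjusted p = 0.0546). Hccs was called higher at day 8 as well without day 4 replicate 2 (0.58, adjusted p = 0.0448).

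Between day 4 and day 8, 6 of the 41 factors were called higher, against 11.7% of all tested genes, and 2 lower, against 10.8%. With day 4 replicate 2 left out, 4 were called higher and 5 lower. The shares of all tested genes just given belong to the fit with all libraries. Among the higher ones were Cox17 (log2 fold change 1.20, SE 0.31, adjusted p = 0.0207), Lyrm7 (log2 fold change 0.95, SE 0.24, adjusted p = 0.0199) and Sdhaf3 (log2 fold change 0.81, SE 0.22, adjusted p = 0.0251). The lower ones were Cox16 (log2 fold change -0.60, SE 0.16, adjusted p = 0.0264) and Tmem70. The Lyrm7 call was lost without day 4 replicate 3 or day 8 replicate 1 or 3, and with only 2 days in the fit (adjusted p from 0.0501 to 0.0635). That of Cox17 was lost without day 4 replicate 3 or day 8 replicate 2 (0.075 and 0.0683). The Cox16 call was lost without day 4 replicate 3 or day 8 replicate 2 or 3, and with only 2 days (0.0646 to 0.101). Sdhaf3 and Tmem70 were followed only without day 4 replicate 2. Both calls held there (0.54, adjusted p = 0.0446 for Sdhaf3 and -0.63, adjusted p = 0.00312 for Tmem70). Their calls under the other alternatives were not tested.

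The strand setting of the counting is not given in the sources used, and exons of 12 of the 38 genes overlap those of another gene in GENCODE M21. Atp5j, the stalk gene with the smallest rise, overlaps Gabpa on the opposite strand. Gabpa had 6700 counts over the 9 libraries and Atp5j 50412, and how many reads of the overlap were counted for either was not tested, which leaves the values of Atp5j uncertain. Uqcrb, with 64576 counts, overlaps Gm10767, with 332. Reads shared with processed pseudogenes could be split as well. The 11 rows left out held at most 1383 counts over the 9 libraries, for Cox5b-ps, and 1190 for Atp5l2-ps. These counts do not show how many reads were shared or lost. Pseudogenes with symbols not holding -ps were not looked at, and the effect on the members was not tested.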

How the data were processed

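Bulk RNA-seq gave RNA levels for 9 libraries of cultured mouse adipocyte precursors, which were grouped by day from the labels. The authors deposited raw counts of reads per Ensembl gene in 1 table, not normalized, with a column for each library. The submitters' processing notes name HISAT2, featureCounts and the genome build GRCm39. Their versions, the strand setting and the annotation used for counting are not given in the sources used here. Libraries came from a stranded total RNA kit, per the labels' protocols.

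The counts were tested with edgeR 4.0.16 in R 4.3.3. Of 55359 genes, 30671 had no count at all, and filterByExpr with a minimum count of 10 and a minimum total of 15 kept 14649. All 9 libraries entered 1 quasi-likelihood fit with TMM scaling, no covariates and 6 residual degrees of freedom, with a biological coefficient of variation of 22.7%. Each comparison used a two-sided F-test, adjusted by Benjamini-Hochberg over all genes tested, with a threshold of 0.05. SEs are the log2 fold change over the square root of F. Adjusted p-values of genes are edgeR's except where DESeq2 (1.42.0) is named. CPM uses the TMM-scaled totals, and principal components used log2 CPM with a prior count of 2. The fit was tested on simulated data. Pairs of libraries of a day differed by 17.0 to 251 in chi-square per degree of freedom, so all were kept as separate replicates.

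The members and gene lists were chosen with earlier results of these data known. The text gives every library's value for the members with the largest and smallest day 8 change of each group, those called between days 4 and 8, the c-subunit genes, Atpif1, Cycs, Cyc1 and Sdhb. Of the assembly factors it names up to 2 with the largest and 2 with the smallest day 8 change per complex. Tmem186, which serves complex I, had been listed among the assembly factors and was left out. One list of markers of another cell type is not reported here. Uqcc4, Uqcc5 and Uqcc6 were not matched by symbol. Lengths and overlaps came from GENCODE M21, of another genome build, without its coordinates, and promoters from RefSeq (GRCm38.p6), matched by symbol. Promoter windows of the unmatched members (among them Sdhc, Cyc1, Uqcrb, Uqcrc2 and Cox6c) were not used here. The alternatives were DESeq2, its size factors in edgeR, total counts, no filter on low counts, only the 2 days compared, the replicate number as a block, leaving out each library, and other lengths. The shortest principal transcript as a length was added after the data were seen.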

Additional observations from a re-analysis of the deposited data

How the results depend on the processing

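All 38 tested members stayed called higher at day 4 and at day 8 against day 0 under each of the 15 alternatives. Their median log2 fold changes moved by more than the libraries' spread with total counts (2.13 at day 4 and 2.50 at day 8). The day 8 median also did so without day 8 replicate 2 (2.67). Leaving out a library gave medians of 2.25 to 2.68 at day 4 and 2.67 to 2.96 at day 8. Day 8 against day 4 was less stable. Members called higher numbered 3 with DESeq2, 3 with no filter on low counts, 2 with total counts, 0 with only the 2 days compared and 0 to 14 when a library was left out, and members called lower 0 to 1. All genes called there numbered 1901 with only the 2 days compared and 1894 to 4185 when a library was left out, with 947 and 910 to 2049 of them higher. Correlations of the deviations of same-numbered libraries from their day means ran from -0.126 to 0.273, and those of unlike-numbered ones from -0.224 to 0.188. Between days 0 and 8 every same-numbered pair (0.273, 0.138 and 0.086) lay above every unlike-numbered one (-0.180 to 0.037). Whether the replicate number pairs the libraries was not tested. With the number as a replicate block the members called higher were again 38, 38 and 1. All genes called numbered 8070, 9368 and 3105 in place of 7998, 9290 and 3285. Of the genes followed one by one, the block changed the call of Ttc19 between days 4 and 8 (0.46, adjusted p = 0.0440). Other named factors, such as Hccs and Tmem70, were not followed with the block.

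With total counts the summed levels at day 0 were 508 CPM for complex II, 1040.5 for complex III and 50.2 for cytochrome c. Those of complex IV and the ATP synthase were 787 and 3508 CPM. In the order just given, the day 8 sums were 2848, 8296, 1065, 5218 and 15638 CPM. Each day 0 sum was higher, and each day 8 sum lower, than with TMM scaling. Joined exon lengths gave 426 CPM per kb for Sdhb and 1358 for Atp5b at day 8. The share of Atp5g1 at day 4 minus day 0 was 0.308 points per kilobase of the shortest principal transcript, in place of -1.97 (-3.35 to -0.477 when a library was left out), and that of Atp5g3 at day 8 minus day 4 ranged from -3.78 to 0.136 points.

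The sign turned for 17 values of the genes followed one by one under each alternative, none of them past the threshold. With total counts these were Uqcc2 (-0.21 at day 4 and -0.016 at day 8), Ttc19 at day 8 (-0.10) and, between days 4 and 8, Atpaf2 (-0.0095; -0.0099 with only the 2 days). The others of the 17 turned between days 4 and 8 when a library was left out, with ranges of -0.23 to 0.092 for Uqcrc2 (0.045 without day 4 replicate 1, 0.038 without day 8 replicate 3), -0.33 to 0.13 for Atp5g3 (0.022 without day 8 replicate 1), -0.026 to 0.53 for Atp5b, -0.17 to 0.20 for Ndufa4 (-0.079 without day 8 replicate 2), -0.19 to 0.14 for Atpaf2 (-0.047 without day 8 replicate 2), -0.10 to 0.38 for Cmc2 and -0.0058 to 0.21 for Atpif1. Between these days 8 further members (Atp5a1, Atp5k, Atp5l, Atp5pb, Sdhd, Uqcr11, Uqcrfs1 and Uqcrh) also took the other sign under at least 1 alternative, with values from -0.25 (Uqcrfs1) to 0.56 (Atp5k) and no call. No member turned in either comparison with day 0. The cause of these changes was not tested. With 3 libraries per day, the exact test of shares could not fall below 0.1.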
